A study of Mus musculus with 2 samples.

Results

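The cellular response to low oxygen was followed in the retina through 8 genes, Hif1a, Epas1, Egln1, Egln3, Vegfa, Pdk1, Ankrd37 and Adm, which were taken by symbol from the 32285 genes in the files, each symbol standing for 1 gene. They were read in 2 droplet 3′ single-cell RNA libraries, one from WT retina and one from retina carrying ND6 13997 G>A in the mitochondrial DNA, called ND6 here, both of male C57BL/6J mice aged 7 months. ND6 encodes a subunit of complex I of the respiratory chain. Mutant mice descended from altered embryonic stem cells and inherited the change from their mothers, with WT fathers, so it was not limited to the retina, while WT mice were inbred separately. How many animals went into a library is not given in the sources used here. With 1 library per genotype there was no replicate check, and the ND6 genotype, the animals and the library cannot be told apart. No test was therefore made between the genotypes. Levels are unique molecular identifiers (UMIs, 1 per captured mRNA molecule) scaled to 1000000 UMIs of the same cells (CPM), intervals are 95% and cover counting error only, and a log2 ratio is always ND6 over WT.

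Hypoxia-inducible factors (HIFs) are transcription factors made of an oxygen-sensitive alpha subunit, HIF1A or EPAS1 (HIF2A), and a stable partner, ARNT. In normal oxygen, prolyl hydroxylases encoded by the Egln genes mark the alpha subunit for destruction by the VHL ubiquitin ligase. When oxygen is low the alpha subunit persists, enters the nucleus and switches on genes for blood vessel growth, glycolysis and the restraint of mitochondrial respiration. HIF activity is set mainly at the level of protein, which was not measured here, and the retina, whose photoreceptors are among the heaviest users of oxygen in the body, is a tissue in which VEGFA controls vessel growth and leakage.

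The stretches upstream of 3 start sites are shown, for Egln1 and Pdk1 because their ND6 and WT levels over all cells stood apart beyond counting error, as given below, and for Vegfa as the target with the strongest class pattern. They come from RefSeq (GRCm38.p6), which gave a promoter window of 300 bases for 7 of the 8 members, Epas1 being the one not matched, and they are printed 5′ to 3′ on the strand of the gene without annotated exon bases. Capitals mark the core letters bound by HIF, ACGTG or GCGTG, on either strand. Vegfa lies at chr17:46032378-46032627 (minus strand), Egln1 at chr8:124949325-124949504 (minus strand) and Pdk1 at chr2:71872974-71873223 (plus strand).
Vegfa: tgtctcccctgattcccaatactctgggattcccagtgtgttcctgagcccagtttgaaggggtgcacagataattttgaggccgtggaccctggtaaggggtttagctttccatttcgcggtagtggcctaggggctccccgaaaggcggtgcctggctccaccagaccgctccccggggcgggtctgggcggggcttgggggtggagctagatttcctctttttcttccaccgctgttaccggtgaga
Egln1: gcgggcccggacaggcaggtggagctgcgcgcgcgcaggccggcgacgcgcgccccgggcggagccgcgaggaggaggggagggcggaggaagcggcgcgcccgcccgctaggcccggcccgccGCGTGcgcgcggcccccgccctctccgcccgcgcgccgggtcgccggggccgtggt
Pdk1: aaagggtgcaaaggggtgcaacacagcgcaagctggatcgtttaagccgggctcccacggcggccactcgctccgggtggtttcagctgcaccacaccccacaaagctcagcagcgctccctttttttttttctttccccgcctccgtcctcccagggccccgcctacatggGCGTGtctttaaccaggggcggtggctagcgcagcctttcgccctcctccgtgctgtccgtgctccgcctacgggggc
The Vegfa stretch held no match, while the Egln1 and Pdk1 stretches held 1 each, GCGTG, beginning at base -126 and base -78, where -1 is the base before the RefSeq start site. The full windows also held ACGTG at base -68 for Egln1 and GCGTG at base -2 for Pdk1, neither lying wholly within the printed stretch. A second RefSeq window of Vegfa, at an inner start site, held GCGTG and CACGT. These letters are common: 43.8% of 32817 promoter windows of 300 bases held one of them on either strand. All 7 members with a window had a match in at least 1 of their windows, Vegfa only in the second. The 43.8% is a share of windows and not of genes, so the 7 cannot be set against it. A match is a description of the letters and not a bound site.

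Of the barcodes with more than 400 UMIs, more than 200 genes and at most 20% mtDNA-encoded UMIs, 12529 WT and 18395 ND6 cells were kept, holding 54524401 and 62949610 UMIs, with a median of 1878 and 1416 UMIs per cell. The limit on mtDNA-encoded UMIs removed 45.9% of the WT barcodes that passed the other 2 limits and 17.3% of the ND6 barcodes, and 59 cell barcodes occurred in both libraries. Clusters built without the 8 genes gave rod-like, cone-like, bipolar-like, amacrine-like, Müller-like, RPE-like (retinal pigment epithelium) and macrophage- or microglia-like classes, named by markers. The amacrine-like class also carried ganglion cell markers, at a summed 1954 CPM in WT and 859 CPM in ND6. The Müller-like class was small and unequal in depth, with 36 WT cells at a median of 10130 UMIs and 91 ND6 cells at 1645 UMIs. A further red blood cell cluster was mixed with rods, and a cluster led by Nefl, Bc1 and Glul stayed unnamed. No vascular class was found. Of the 8 endothelial markers, Cldn5 had 4 UMIs in WT and 1 in ND6, Cdh5 3 and 0, Emcn 3 and 2, Ly6c1 10 and 6, and Tie1 0 in both libraries, while Pecam1 had 116 and 352, Esam 51 and 105 and Egfl7 36 and 60. Cells with at least 3 of these markers numbered 2 in WT and 0 in ND6, so the endothelial cells that answer VEGFA and make much adrenomedullin were nearly missing as cells. Immediate early genes summed to 1187 CPM in WT and 329 CPM in ND6, and heat shock genes to 328 and 157 CPM, and their part in the differences below was not tested.

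Hif1a (ENSMUSG00000021109, GRCm38, chr12:73901375-73947530, plus strand, up to 15 exons) encodes the HIF1 alpha subunit and had the most UMIs of the 8. It overlaps an antisense gene and, on its own strand, the protein-coding gene Gm49321, so UMIs of the shared stretch may be split or lost in counting. Over all cells it stood at 594 CPM in WT (32379 UMIs) and 586 CPM in ND6 (36857 UMIs), a log2 ratio of -0.02 (interval -0.04 to 0.00). The libraries thus lay on the same level within counting error. By class, bipolar-like cells had Hif1a at 621 CPM in WT and 689 CPM in ND6, the highest level in ND6. Rod-like cells, highest in WT, were at 629 and 606 CPM, cone-like cells at 590 and 578 CPM, and amacrine-like cells at 596 and 552 CPM. Those 4 neuronal classes were close, and the WT intervals of bipolar-like and rod-like cells overlapped. Müller-like cells were at 550 and 414 CPM, macrophage- or microglia-like cells at 325 and 336 CPM, and RPE-like cells at 272 and 334 CPM. Between the genotypes the class ratios pointed both ways, from -0.41 (interval -0.70 to -0.13) in Müller-like cells to 0.30 (interval 0.12 to 0.47) in RPE-like cells, and the latter turned to -0.007 under 1 alternative.

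Epas1 (ENSMUSG00000024140, chr17:86753700-86833410, plus strand, up to 16 exons) encodes HIF2A, the alpha subunit best known from endothelium and from the control of erythropoietin. Its level over all cells was 78.0 CPM in WT and 75.5 CPM in ND6, with a log2 ratio of -0.05 (interval -0.11 to 0.01). Of the named classes, RPE-like cells had the highest Epas1 level in both libraries, 160 CPM in WT and 134 CPM in ND6. Müller-like cells came next at 103 and 82.2 CPM, and their ND6 interval overlapped that of RPE-like cells. Cone-like cells were at 80.3 and 79.0 CPM, rod-like cells at 77.0 and 74.1 CPM, and bipolar-like cells at 54.5 and 54.4 CPM, so these 3 classes differed by little between genotypes. Amacrine-like cells gave the lowest WT level, 20.3 CPM from 15 UMIs, against 51.8 CPM from 95 UMIs in ND6, a log2 ratio of 1.35 (interval 0.56 to 2.24). That ratio turned to -0.36 when each cell was thinned to 400 UMIs. Thinning left 1 WT and 3 ND6 cells with an Epas1 UMI, too few to give a direction. WT amacrine-like cells held a median of 7548 UMIs against 3919 in ND6.

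The mix of the alpha subunits set RPE-like cells apart from the named neuronal classes. Epas1 took 37.1% of the Hif1a and Epas1 UMIs of RPE-like cells in WT (exact binomial interval 33.7 to 40.6%) and 28.6% in ND6 (25.5 to 31.9%). In rod-like cells the share was 10.9% in both libraries, in bipolar-like cells 8.07% and 7.32%, and in Müller-like cells 15.8% and 16.6%. The RPE-like interval lay above those of the other named classes in each library. With finer clustering (Leiden resolution 2) the RPE-like class divided into a cluster led by Ttr, Ptgds and Rgr, with Epas1 at 185 CPM in WT and 168 CPM in ND6 and Hif1a at 160 and 219 CPM, and one led by Enpp2, Timp3 and Lrat, with Epas1 at 91.3 and 58.5 CPM and Hif1a at 555 and 578 CPM. Within the RPE-like class the high share of Epas1 was thus carried by the cluster led by Ttr. No ganglion cell class formed in the main clustering. At resolution 2 a small ganglion cell-like cluster led by Nefl, Bc1 and Nrsn1 (18 and 65 cells) was also rich in Epas1. Its Epas1 stood at 149 CPM in WT (9 UMIs) and 175 CPM in ND6 (53 UMIs), and its Hif1a at 332 and 417 CPM. The one led by Nefl, Bc1 and Kif5a had Epas1 at 42.6 and 50.6 CPM and Hif1a at 424 and 478 CPM. High Epas1 was thus not particular to RPE-like cells.

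Egln1 and Egln3 encode PHD2 and PHD3, prolyl hydroxylases that mark the alpha subunits, and both are themselves HIF targets. Egln1 (ENSMUSG00000031987, chr8:124908587-124949324, minus strand, 5 exons) was at 90.3 CPM in WT (4921 UMIs) and 73.2 CPM in ND6 (4607 UMIs), a log2 ratio of -0.30 (interval -0.36 to -0.24), or 0.811 of the WT level. The ratio was negative in all 7 named classes compared, and its interval lay below 0 in 6 of them. Rod-like cells went from 88.5 CPM in WT to 65.5 CPM in ND6, a log2 ratio of -0.44 (interval -0.51 to -0.36). Cone-like cells as a class, at 105 and 99.0 CPM, were the exception, with an interval of -0.20 to 0.03. With finer clustering the cone-like cluster led by Opn1sw was lower in ND6, at 100 and 75.6 CPM (log2 ratio -0.41, interval -0.61 to -0.21). The cone-like cluster led by Gngt2, at 57.8 and 61.9 CPM, had an interval that held 0. A deep cluster led by Pde6c and Adrb1, unnamed there (medians 49438 and 29308.5 UMIs), stood at 111 and 113 CPM. Bipolar-like cells stood at 95.5 and 77.7 CPM, amacrine-like cells at 85.3 and 61.0 CPM, and RPE-like cells at 77.5 and 54.6 CPM. The RPE-like direction turned (log2 ratio 0.36) when each cell was thinned to 400 UMIs, with 8 WT and 28 ND6 cells holding a UMI. The steepest ratios came from the fewest molecules, with 114 CPM (85 UMIs) and 52.8 CPM (18 UMIs) in Müller-like cells and 62.3 CPM (52 UMIs) and 25.6 CPM (8 UMIs) in macrophage- or microglia-like cells. Of the 7 class ratios, 3 passed an absolute log2 ratio of 0.5, the size used below as a descriptive call.

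That size of difference was common in these libraries. Among genes whose UMIs in the pair of libraries came to 20 or more, it was passed by 30.3% over all cells, by 28.1% in rod-like, 20.3% in cone-like, 24.4% in bipolar-like, 35.2% in amacrine-like, 38.3% in Müller-like, 25.9% in RPE-like and 39.9% in macrophage- or microglia-like cells. Over all cells 2 of the 7 members with 20 UMIs passed it, both with higher levels in ND6, which is a share near the background. These were Pdk1 and Egln3, and Egln3 did so on 23 UMIs with an interval that held 0. By class, 1 of 6 members passed it in rod-like, cone-like, bipolar-like and amacrine-like cells, 2 of 5 in Müller-like cells, 3 of 6 in RPE-like cells and 3 of 5 in macrophage- or microglia-like cells. The median log2 ratio of the 7 was -0.01, against 0.07 over all genes.

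**Figure D1:**
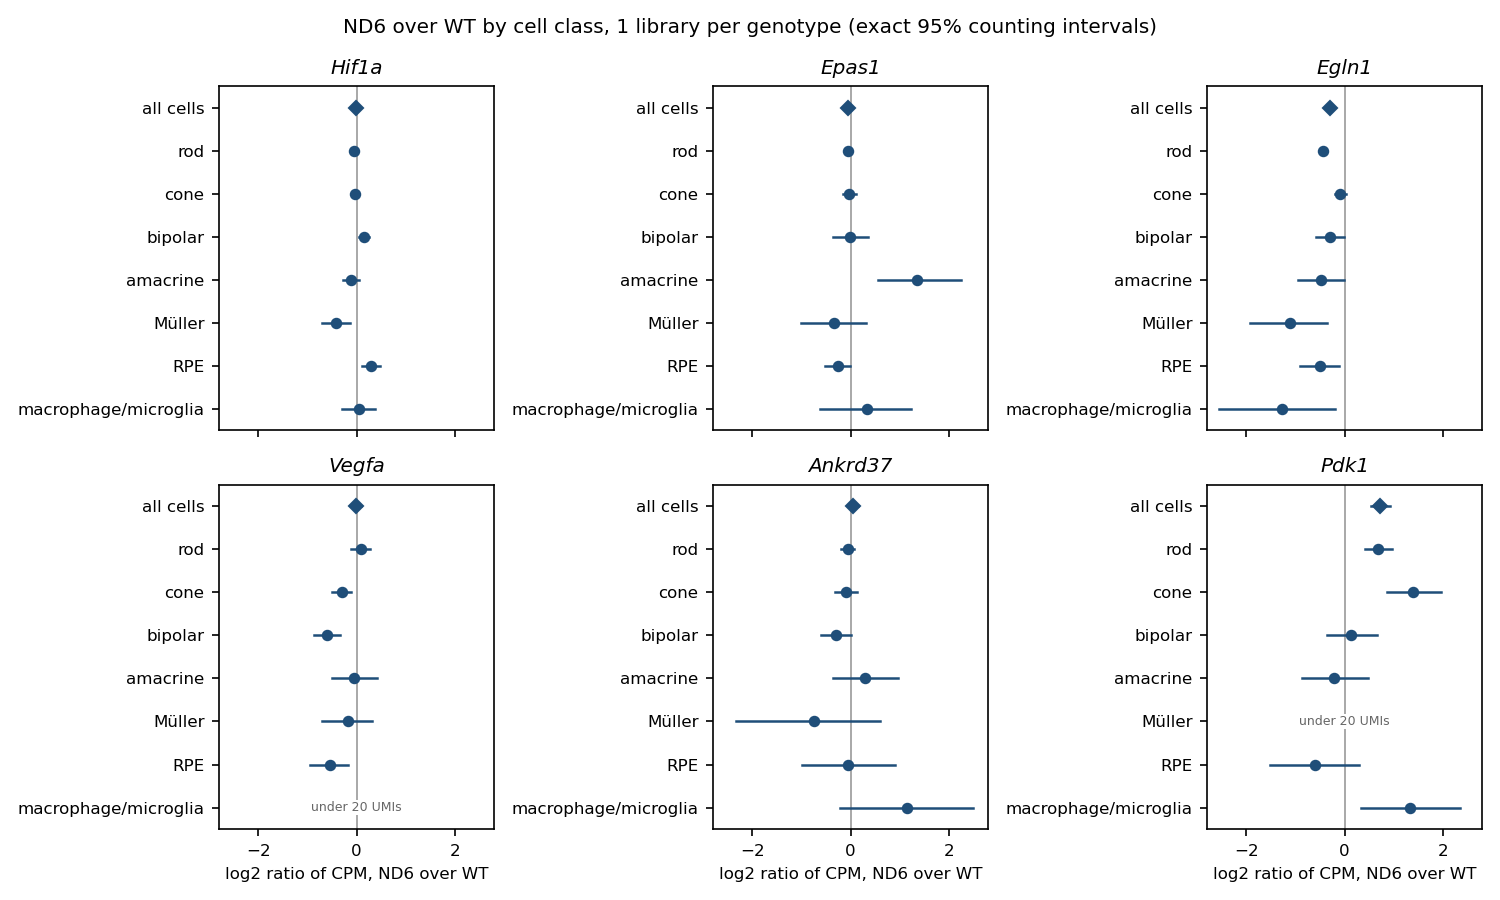
The log2 ratio of ND6 over WT (x axis) for 6 genes over all cells (diamonds) and in 7 cell classes (circles), with exact 95% counting intervals as lines and 1 library per genotype. Egln1 lies left of 0 in every class, while Pdk1 over all cells lies at 0.73 and Hif1a, Epas1, Vegfa and Ankrd37 over all cells lie between -0.05 and 0.04.

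Egln3 (ENSMUSG00000035105, chr12:54178981-54203860, minus strand, 5 exons) was nearly silent, with 7 UMIs in WT and 16 in ND6, a log2 ratio of 0.99 with an interval of -0.38 to 2.51. Under thinning the ratio was -0.55, with a UMI left in 1 rod-like cell of each library. Its UMIs lay mainly outside photoreceptors: amacrine-like cells held 3 and 6 and macrophage- or microglia-like cells 2 and 2, while 9578 WT rod-like cells held 1 and 13246 ND6 rod-like cells held 6. At this depth no difference between the genotypes could be detected.

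Vegfa (ENSMUSG00000023951, chr17:46016993-46032369, minus strand, 13 annotated transcripts) encodes the vascular endothelial growth factor that makes vessels sprout and leak, and is the best known HIF target of the retina. Over all cells it was at 25.7 CPM in WT (1399 UMIs) and 25.5 CPM in ND6 (1606 UMIs), a log2 ratio of -0.01 (interval -0.11 to 0.10), which turned to 0.60 when each cell was weighted equally. Its level followed the cell class far more than the genotype. Müller-like cells, the radial glia of the retina, were highest at 160 CPM in WT (119 UMIs) and 141 CPM in ND6 (48 UMIs). Bipolar-like cells had 117 and 77.4 CPM, amacrine-like cells 77.2 and 74.7 CPM, and RPE-like cells 80.8 and 55.1 CPM. Cone-like cells were lower at 39.7 and 32.2 CPM, and rod-like cells, the bulk of the retina, were at 12.4 and 13.1 CPM. Macrophage- or microglia-like cells held 2 UMIs in each library. In WT the Müller-like and bipolar-like intervals overlapped, and the amacrine-like and RPE-like intervals overlapped in both libraries.

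RNA outside cells can add to the levels of all members, and how much of it each cell took up was not measured. Cell levels can therefore lie below its level, and those at or below it were not told apart from it. Barcodes with 10 to 100 UMIs, too few for a cell, carried Vegfa at 39.8 CPM in WT (9 UMIs, interval 18.2 to 75.5) and 71.9 CPM in ND6 (28 UMIs, interval 47.8 to 104). Rod-like and macrophage- or microglia-like levels were below these values in both libraries and cone-like levels were at or below them. Whether these levels were expression or free RNA was thus left undecided. At resolution 2 the cone-like cluster led by Opn1sw had Vegfa at 52.2 CPM in WT (interval 45.8 to 59.2) and 42.1 CPM in ND6. In WT that lay above the free RNA value but within its interval, and in ND6 below it. Against barcodes of 1 to 9 UMIs, a background chosen after the data were seen (26.2 and 47.2 CPM), the cone-like level lay above it in WT and below it in ND6, and the rod-like levels stayed below. In ND6 the bipolar-like, amacrine-like and RPE-like levels were also within the interval of the free RNA, and Müller-like cells alone, at 141 CPM (interval 104 to 187), had an interval that began at its upper bound. Free RNA for Hif1a was 358 CPM in WT and 591 CPM in ND6, for Epas1 66.3 and 79.6 CPM, and for Egln1 61.9 and 89.9 CPM. The Egln1 values rested on 14 and 35 UMIs with overlapping intervals. Barcodes of 1 to 9 UMIs gave 63.2 and 56.8 CPM, so no direction was read. Of the named classes in ND6, only cone-like cells lay above the 10 to 100 UMI value for Egln1, so the same limit applies to the others. Only bipolar-like and rod-like cells did for Hif1a, and RPE-like and Müller-like cells for Epas1. In WT, RPE-like and macrophage- or microglia-like cells lay below it for Hif1a, and bipolar-like, amacrine-like and macrophage- or microglia-like cells for Epas1.

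**Figure D2:**
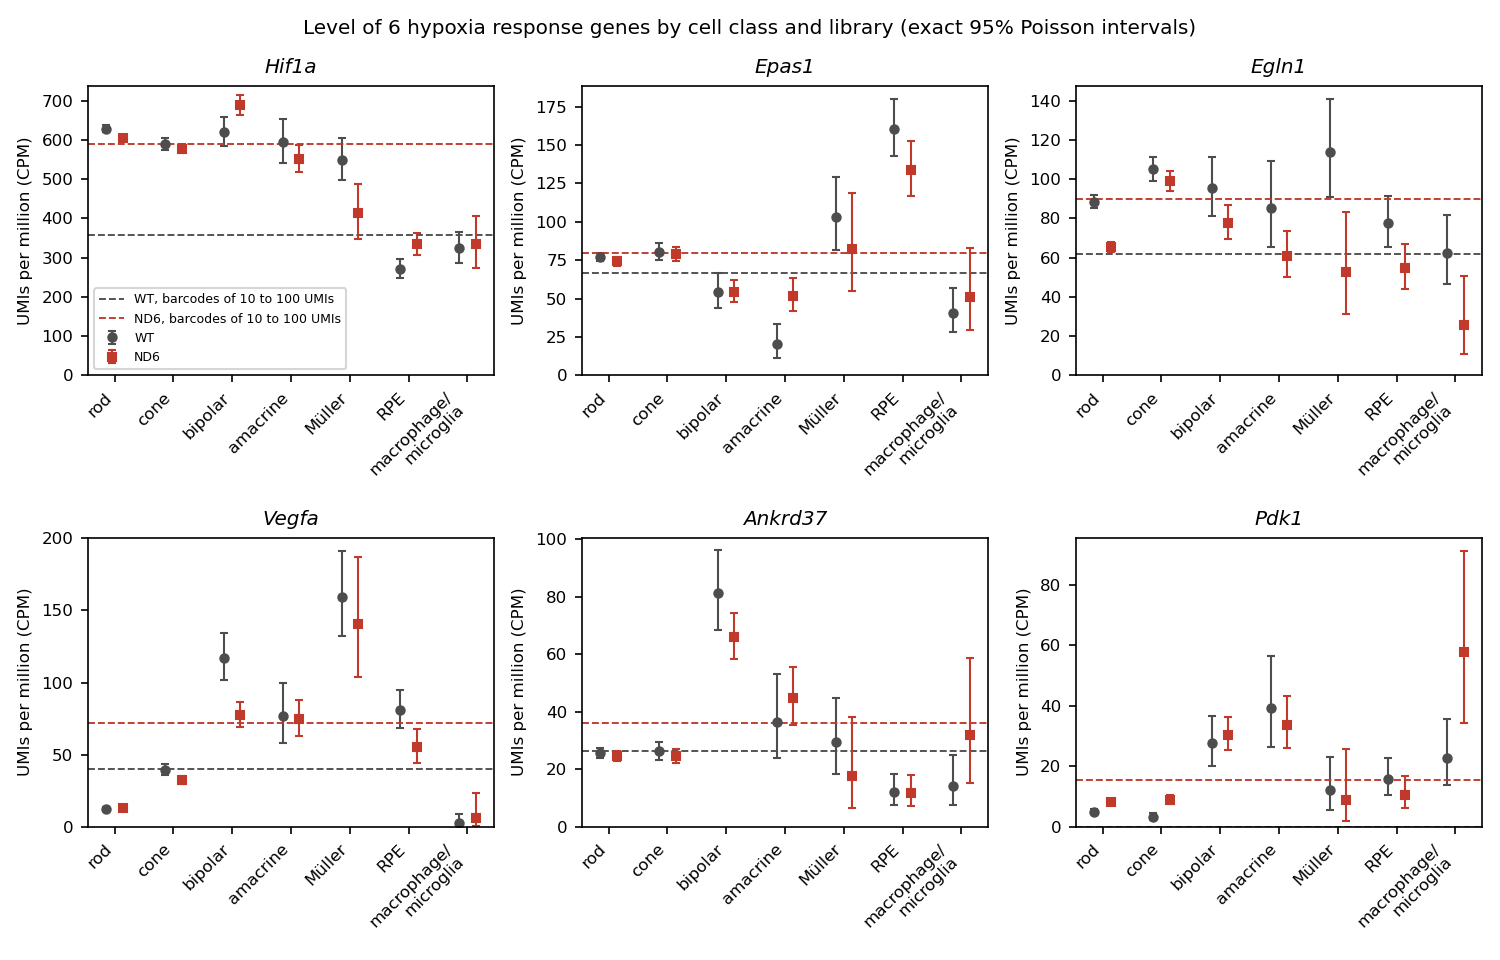
Level in CPM (y axis, linear from 0) of 6 genes in 7 cell classes of the WT (grey circles) and ND6 (red squares) libraries, with exact 95% Poisson intervals as bars and dashed lines at the level in barcodes of 10 to 100 UMIs. Vegfa peaks in Müller-like cells (160 and 141 CPM), Epas1 in RPE-like cells (160 and 134 CPM) and Ankrd37 in bipolar-like cells (81.5 and 66.1 CPM), while Pdk1 had 0 UMIs in the WT barcodes of 10 to 100 UMIs.

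Between the genotypes, Vegfa was lower in ND6 in 5 of the 6 classes with 20 UMIs, and the interval lay below 0 in 3. The log2 ratio was -0.60 (interval -0.86 to -0.34) in bipolar-like cells, -0.55 (interval -0.94 to -0.17) in RPE-like cells and -0.31 (interval -0.50 to -0.11) in cone-like cells. Rod-like cells gave 0.08 (interval -0.11 to 0.27). The RPE-like value turned to 0.05 when each cell was weighted equally, and the bipolar-like value was -0.09 when each cell was thinned to 400 UMIs. With finer clustering all 3 bipolar-like clusters were lower in ND6: the one led by Gsg1, Grik1 and Ptprz1 at 113 and 70.1 CPM, the one led by Trpm1, Vstm2b and Pcp2 at 115 and 85.1 CPM, and the one led by Adarb2, Cntn5 and Scgn at 179 and 147 CPM. Only the first of these had an interval that left out 0.

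The share of cells with a Vegfa UMI depended on depth. In Müller-like cells it was 77.8% in WT, the highest of the named classes, and 30.8% in ND6, below the 34.6% of bipolar-like cells, at the depths given above. Thinned to 400 UMIs per cell it was 16.7% (exact binomial interval 6.37 to 32.8%) and 7.69% (3.15 to 15.2%), which overlap. Bipolar-like cells had 4.72% and 4.85% after thinning, against 50.2% in WT before it, and rod-like cells 0.365% and 0.544%, against 3.75% and 3.19%. Macrophage- or microglia-like cells, the class with the lowest level, set the background: 0 of 255 WT cells had a UMI after thinning, which allows a share of up to 1.18%, and 0.730% of the 137 ND6 cells did.

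Pdk1 (ENSMUSG00000006494, chr2:71873224-71903858, plus strand, up to 11 exons) encodes the kinase that shuts pyruvate dehydrogenase and so keeps pyruvate from the mitochondria. It had the largest difference of the members with over 100 UMIs, 6.51 CPM in WT (355 UMIs) against 10.8 CPM in ND6 (680 UMIs), 1.66-fold higher, with a log2 ratio of 0.73 (interval 0.54 to 0.92). Both photoreceptor classes were higher in ND6. Rod-like cells were at 4.99 CPM in WT (177 UMIs) and 8.06 CPM in ND6 (289 UMIs), a log2 ratio of 0.69 (interval 0.42 to 0.97). Cone-like cells were at 3.40 CPM (36 UMIs) and 8.95 CPM (135 UMIs), a log2 ratio of 1.40 (interval 0.86 to 1.97). Under the alternatives the cone-like ratio ran from 0.48 to 1.47. With finer clustering the cone-like clusters led by Opn1sw and by Gngt2 gave 1.02 (interval -0.07 to 2.21) and -0.74 (interval -3.87 to 2.84). The deep unnamed cluster led by Pde6c and Adrb1 held 25 WT and 109 ND6 UMIs, a log2 ratio of 1.40 (interval 0.76 to 2.09). Macrophage- or microglia-like cells had 22.8 CPM (19 UMIs) and 57.6 CPM (18 UMIs), with an interval of 0.33 to 2.35. That class pooled unlike clusters. The one led by Igkc and Ccl5 (207 and 110 cells) held 4 UMIs in each library, with an interval that held 0. The one led by Ccl4 and Ccl3 (48 and 27 cells) was at 38.8 CPM (15 UMIs) and 105 CPM (14 UMIs), interval 0.28 to 2.59. In the other classes with 20 UMIs the intervals held 0, with bipolar-like cells at 27.5 and 30.4 CPM, amacrine-like cells at 39.3 and 33.8 CPM, and RPE-like cells at 15.9 and 10.6 CPM. The RPE-like log2 ratio of -0.59 turned to 1.08 under thinning, with 1 WT and 6 ND6 cells holding a UMI. In free RNA, Pdk1 had 0 UMIs in the WT barcodes of 10 to 100 UMIs (interval up to 16.3 CPM) and 6 UMIs or 15.4 CPM in the ND6 barcodes (interval 5.66 to 33.5 CPM), a difference within counting error. Among barcodes of 1 to 9 UMIs it was at 4.51 CPM in WT (interval 2.16 to 8.30) and 12.8 CPM in ND6 (interval 8.53 to 18.5). Those intervals did not overlap, so this free RNA was higher in ND6 beyond counting error. The WT rod-like and cone-like levels lay within its WT interval. The rod-like and cone-like ND6 levels, and the ND6 level over all cells, lay below both ND6 values. By the reading used for Vegfa they were thus not told apart from free RNA. The part of free RNA in the difference was not tested.

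Ankrd37 (ENSMUSG00000050914, chr8:45996902-46005707, minus strand, up to 5 exons), an ankyrin repeat protein gene known as a direct HIF1 target, overlaps Ufsp2 and Lrp2bp on the opposite strand. Its levels of 26.5 CPM in WT and 27.3 CPM in ND6 gave a log2 ratio of 0.04 (interval -0.06 to 0.14). Bipolar-like cells were highest in both libraries, at 81.5 and 66.1 CPM, and their intervals stood apart from those of amacrine-like cells at 36.6 and 44.7 CPM. Cone-like cells at 26.2 and 24.5 CPM and rod-like cells at 25.5 and 24.6 CPM were close, and RPE-like cells were lowest at 12.1 and 11.7 CPM. Barcodes of 10 to 100 UMIs had Ankrd37 at 26.5 CPM in WT (6 UMIs, interval 9.74 to 57.7). In ND6 they had it at 36.0 CPM (14 UMIs, interval 19.7 to 60.3). Cone-like, rod-like and RPE-like levels were at or below these values, so they were not told apart from free RNA. In WT the rod-like clusters led by Slc22a29 (45.3 CPM) and by Sik2 (30.3 CPM) lay above the WT value. In ND6 they were at 34.1 and 26.1 CPM, below the ND6 value. Finer clustering placed the peak in the bipolar-like cluster led by Trpm1, Vstm2b and Pcp2, with 149 CPM in WT and 106 CPM in ND6, against 58.5 and 62.6 CPM in the cluster led by Gsg1.

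Adm (ENSMUSG00000030790, chr7:110627661-110629820, plus strand, up to 4 exons) encodes adrenomedullin, a vessel-dilating peptide. It had 10 UMIs in WT and 3 in ND6, under the 20 set as a minimum, and the interval of its ratio reached from -4.44 to 0.01. It was therefore detected too thinly in either retina for a comparison.

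Rod-like cells formed 6 clusters that differed in depth, of which 5 are described, and Hif1a and Vegfa differed more between these clusters than between the rod-like cells of the 2 libraries. Hif1a ran from 400.6 CPM in WT and 446 CPM in ND6, in the cluster led by Gchfr and Cox7a1, to 746 and 709 CPM in the cluster led by Sik2 and Ahr and 686 and 770 CPM in the one led by Slc22a29 and Sv2c. Vegfa was at 4.53 and 7.87 CPM in the first and at 19.9 and 21.5 CPM in the last. In the clusters led by Gchfr and AY036118, Vegfa was higher in ND6 with intervals above 0, at levels under those of free RNA, and the interval lay above 0 in 3 of all 6 clusters. Egln1 was lower in ND6 in all 5 clusters, from a log2 ratio of -0.12 in the cluster led by AY036118 and Gngt1, whose interval held 0, to -0.77 in the one led by Slc22a29. Pdk1 was higher in ND6 in all 5, from 0.20 in the cluster led by Slc22a29 to 1.89 in the one led by Gchfr, and in 2 of them, those led by AY036118 and Slc22a29, the interval held 0, as it did in 3 of all 6 clusters. The nuclear RNA Malat1 moved with the levels: it stood at 2076 and 2929 CPM in the cluster led by Gchfr and at 73555 and 87049 CPM in the one led by Slc22a29, and its part in them was not tested.

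**Figure D3:**
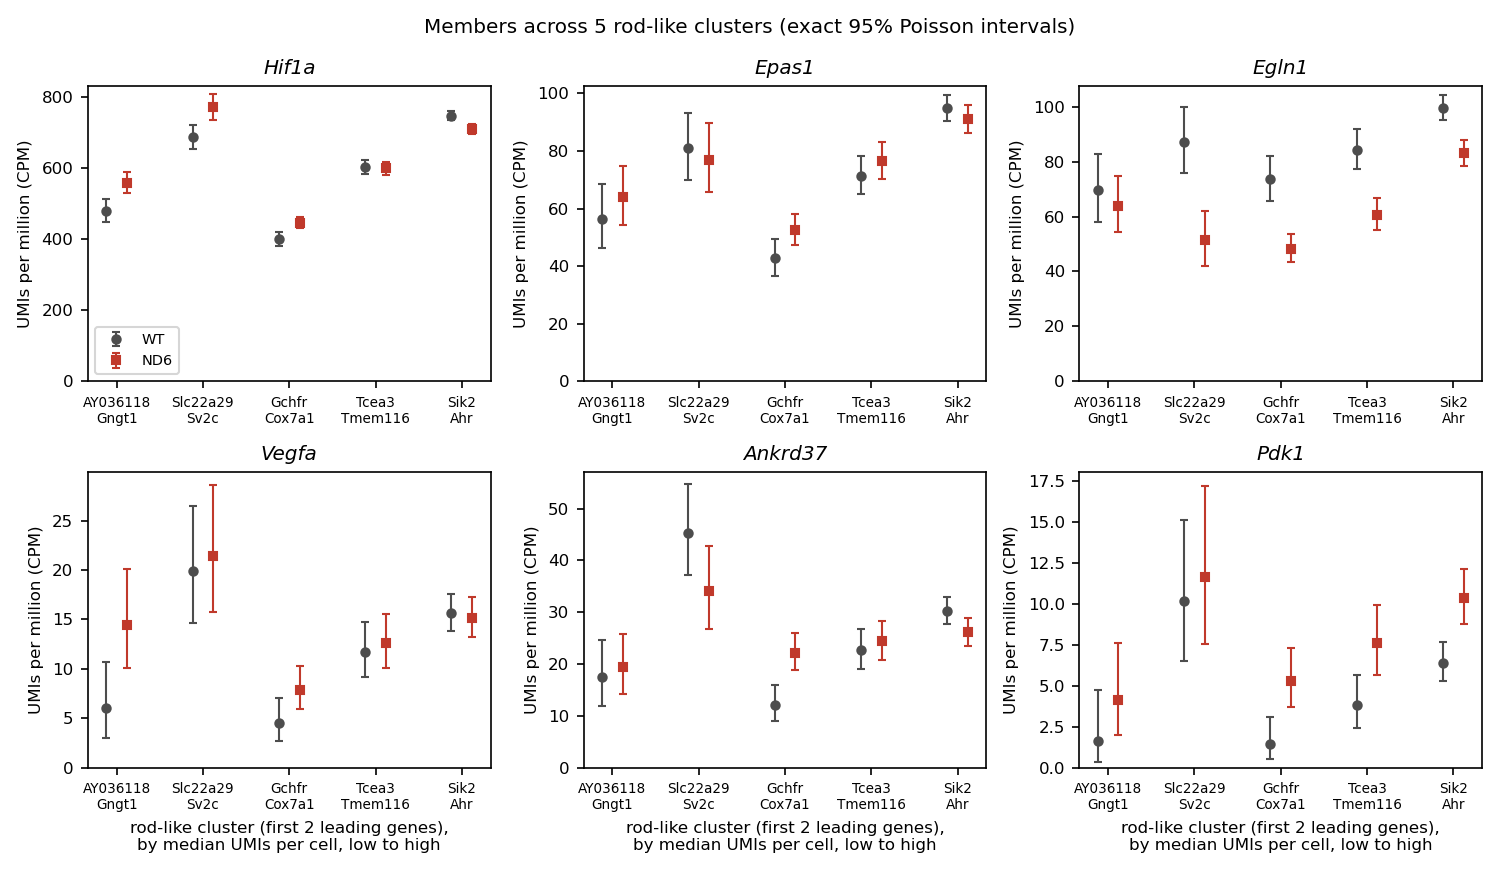
Level in CPM (y axis, linear from 0) of 6 genes in 5 rod-like clusters, ordered along the x axis by median UMIs per cell and named by 2 leading genes, in WT (grey circles) and ND6 (red squares) with exact 95% Poisson intervals. Hif1a, Epas1, Vegfa, Ankrd37 and Pdk1 are higher in the clusters led by Slc22a29 and by Sik2 than in the one led by Gchfr, and the ND6 points of Egln1 lie below the WT points throughout.

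The rest of the pathway was read from a list of 48 genes, of which 45 had at least 20 UMIs over all cells. Of the 45, 8 passed the descriptive call with higher and 4 with lower levels in ND6, beside the 30.3% of all genes that passed it in either direction, and their median log2 ratio was 0.16 against 0.07 over all genes. Several of these values over all cells came with unequal shares of the classes, since bipolar-like cells made up 1.86% of WT and 3.47% of ND6 cells, amacrine-like cells 0.623% and 1.63%, RPE-like cells 2.71% and 5.23%, and macrophage- or microglia-like cells 2.04% and 0.745%. Among 11 genes of the HIF machinery, 1 passed it, Arnt2, the neuronal partner of the alpha subunits, at 0.66 and 1.40 CPM with a log2 ratio of 1.08. In amacrine-like cells, which held the most Arnt2 UMIs, it was at 25.7 and 22.3 CPM, a log2 ratio of -0.20 (interval -1.02 to 0.66). Arnt was at -0.08, Vhl at -0.12, Hif1an, which encodes an asparaginyl hydroxylase that blocks HIF, at -0.18, and Egln2 at 0.19.

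Of the 30 other HIF targets, 27 had 20 UMIs, and 4 passed the call with higher and 3 with lower levels in ND6. The higher ones were P4ha2, a collagen prolyl hydroxylase (log2 ratio 1.31), the vessel regulator Angpt2 (1.16, on 25 UMIs, with an interval that held 0), the lactate carrier Slc16a3 (0.71) and the glycolytic enzyme Tpi1 (0.69). The lower ones included Pdgfb (-1.59) and Car12 (-0.55). Within the class that held most of its UMIs, P4ha2 was at 34.0 and 29.9 CPM in bipolar-like cells (log2 ratio -0.19, interval -0.65 to 0.29), Pdgfb at 77.9 and 67.2 CPM in macrophage- or microglia-like cells (-0.21, interval -0.996 to 0.52) and Car12 at 221 and 188 CPM in RPE-like cells (-0.24, interval -0.45 to -0.02). The values of these 3 genes within those classes stopped short of the call, unlike those over all cells. In rod-like cells, which held most of their UMIs, Slc16a3 (0.73, interval 0.55 to 0.91) and Tpi1 (0.76, interval 0.72 to 0.80) passed it. P4ha2 also passed it in amacrine-like cells (3 and 32 UMIs, 2.10, interval 0.43 to 4.45) and rod-like cells (1 and 28 UMIs, 4.79, interval 2.19 to 10.1). Glycolytic genes did not share 1 direction. Tpi1 was at 232 CPM in WT and 374 CPM in ND6, Pgk1 at 280 and 378 CPM and Aldoa at 1638 and 2159 CPM, whereas Ldha, which makes lactate, was at 1079 and 923 CPM. By class, Tpi1 was higher in ND6 in rod-like cells (192 and 325 CPM) and lower in amacrine-like cells (1227 and 831 CPM). Among stress-linked targets Ndrg1 was at 221 and 171 CPM and Ddit4 at 135 and 95.6 CPM, both lower in ND6 and both short of the call, and the glucose carrier Slc2a1, with 75.7 and 76.8 CPM, was level.

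Among 7 receptors of VEGF and adrenomedullin, Flt1 (0.70), Kdr (0.64) and Nrp2 (0.71) passed the call with higher and Ramp2 (-0.55) with lower levels in ND6. With endothelial cells nearly missing, Flt1 and Kdr were highest in Müller-like cells, which had Flt1 at 358 CPM in WT and 528 CPM in ND6 and Kdr at 252 and 343 CPM. Rod-like cells had Flt1 at 2.26 and 6.67 CPM and Kdr at 2.79 and 6.19 CPM. Amacrine-like cells held 1 Flt1 UMI in WT and 66 in ND6, and bipolar-like cells 3 and 58 Kdr UMIs, and the part of free RNA from Müller-like cells in these was not tested. The class with the highest Vegfa level was thus also the class with the highest level of Flt1 and of Kdr. By class, the 48 genes gave 11 higher and 3 lower calls of 39 with 20 UMIs in rod-like cells, 4 and 1 of 34 in cone-like, 4 and 2 of 37 in bipolar-like, 8 and 4 of 38 in amacrine-like, 3 and 9 of 30 in Müller-like, 4 and 1 of 34 in RPE-like, and 6 and 3 of 31 in macrophage- or microglia-like cells, to be read beside the shares over all genes given above for each class (from 20.3% in cone-like to 39.9% in macrophage- or microglia-like cells). In rod-like cells the list's median was 0.19 against 0.03 over all genes, and in bipolar-like cells -0.06 against 0.08.

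**Figure D4:**
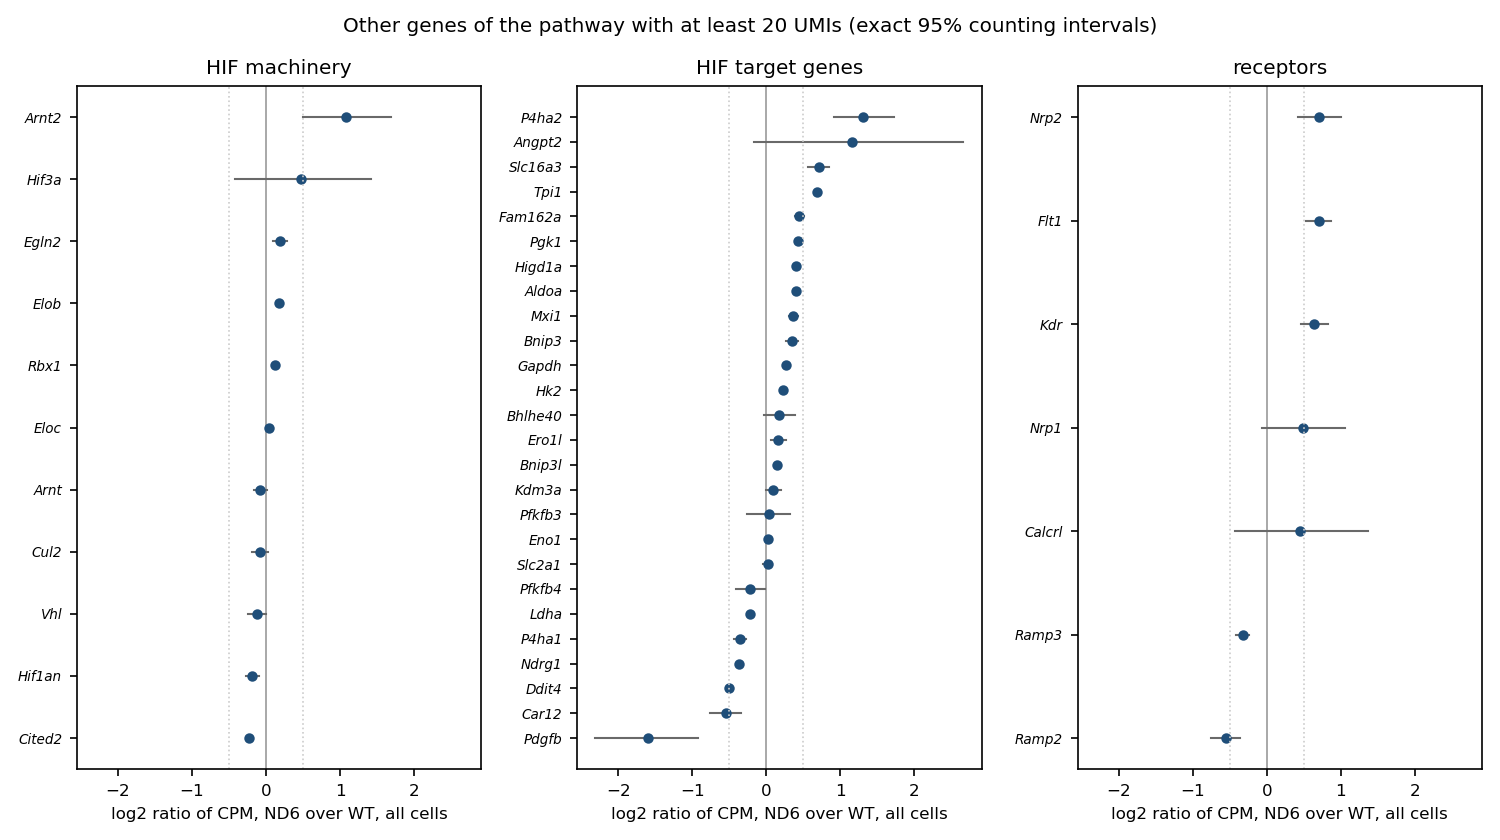
The log2 ratio of ND6 over WT over all cells (x axis) for other pathway genes with at least 20 UMIs, 1 of them not shown, in 3 lists, with exact 95% counting intervals as lines, the descriptive call of 0.5 either way as dotted lines, and 1 library per genotype. HIF targets spread from -1.59 (Pdgfb) to 1.31 (P4ha2), and Flt1, Kdr and Nrp2 lie right of 0.5.

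The genes whose levels ran most like each member were found over 16 points, 8 named cell classes in each of 2 libraries, among 10204 genes. The points share libraries and depth, so the coefficients are given as a description. Vegfa was followed most closely by Neo1 (Pearson's r = 0.95), Sept4 (0.94) and Sesn3 (0.93), and Hif1a by Exoc3 (0.95), Rad21 (0.94) and Ndufaf4 (0.94). For Epas1 these genes were Zgpat (0.92), Rnft1 (0.90) and St3gal1 (0.90), for Egln1 Tob1 (0.98), Fbxo28 (0.94) and Uck2 (0.93), for Pdk1 Stx7 (0.94), Prkcb (0.91) and Cdk2ap1 (0.90), and for Ankrd37 Map4 (0.91), Ppm1e (0.88) and Sh2d5 (0.88). Members were less like each other, with r = 0.73 between Hif1a and Ankrd37 as the highest pair, 0.60 between Hif1a and Egln1, 0.32 between Vegfa and Hif1a, 0.29 between Vegfa and Epas1, and -0.27 between Hif1a and Epas1.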

How the data were processed

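Retinal cells in 1 WT and 1 ND6 library, both from mice aged 7 months, were captured on the 10x 3′ system. Per the labels, the authors counted reads with Cell Ranger 3.0.2 on mm10, and the deposited matrices hold raw UMI counts per gene and barcode, without normalization. The annotation release is not given in the sources used here. The libraries held 77958836 and 80358255 UMIs in all.

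The limits the study states were applied: over 400 UMIs, over 200 genes, and no more than 20% mtDNA-encoded UMIs in a barcode. Fewer cells pass them here than the study counts, so the cells used are not the study's set. With scanpy 1.11.5, 3000 variable genes were scaled within each library, without the members, pathway, stress and mtDNA-encoded genes, and reduced to 30 principal components. Leiden clusters (20 neighbours, resolution 1) were named where at least 3 markers of a class were raised at least 2-fold over the other cells and the 10 leading genes held more of its markers than of any other class. Rod-like clusters, too many to stand out in this way, were named in a second step, by at least 3 rod markers raised 2-fold over the named clusters other than cones. Scrublet called 0 cells in either library and so did not work, and doublets were kept. UMIs were summed per class and library, with exact Poisson intervals for levels (CPM) and exact conditional intervals for ratios at 95%. A count of 0 allows up to 3 UMIs or cells. Intervals cover counting error only. Genes needed 20 UMIs over both libraries for a call (absolute log2 ratio of at least 0.5). The ratio was checked on counts simulated for 15888 genes over all cells with 200 genes changed by 1 on the log2 scale: 95.6% of intervals held the true value. Gene positions came from GENCODE vM21 (GRCm38).

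The text names the members, the pathway list, and for each member with at least 500 UMIs the 3 genes most like it by Pearson's r of log2(CPM + 5), and the leading genes of clusters. The values of 1 pathway gene and 1 rod-like cluster are not reported here. The members and lists were chosen with earlier results of these data known. The alternatives were equal weights per cell, no mtDNA limit, at least 1000 UMIs, totals without mtDNA-encoded UMIs, the median of ratios, the 10% highest Scrublet scores left out, thinning to 400 UMIs, equal class weights, resolution 2, scaling over both libraries, and no minimum for the list.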

Additional observations from a re-analysis of the deposited data

Results flagged for a closer look

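Barcodes removed for over 20% mtDNA-encoded UMIs enter the results only in the alternative without that limit. In the removed barcodes 4 members had a higher level in ND6 than in WT, with intervals that did not overlap. Pdk1 was at 16.3 CPM in ND6 (76 UMIs) and 3.96 CPM in WT (51 UMIs). Epas1 was at 101 CPM in ND6 (473 UMIs) and 45.5 CPM in WT (585 UMIs). Vegfa was at 15.6 CPM in ND6 (73 UMIs) and 8.08 CPM in WT (104 UMIs). Egln3 was at 1.50 CPM in ND6 on 7 UMIs and 0.155 CPM in WT on 2 UMIs. The limit removed 10647 WT and 3861 ND6 barcodes. Clustered without the limit, a ganglion cell-like cluster with median mtDNA-encoded shares of 43.3% and 34.3% held 260 WT and 724 ND6 barcodes. The part of the cell mix in these differences was not tested. No hypothesis was tested on these values.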

How the results depend on the processing

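No paired analysis was possible because each genotype had 1 library, and for the same reason no library could be left out. Over all cells, Egln1 stayed below 0 and Pdk1 above 0 under all 8 alternatives, with log2 ratios from -0.40 to -0.23 and from 0.59 to 0.94. Equal weights per cell moved the ratios over all cells to 0.60 (Vegfa), 0.10 (Hif1a), 0.091 (Epas1), -0.40 (Egln1), 0.94 (Pdk1) and 0.17 (Ankrd37) and the median of the pathway list to 0.30. Thinning to 400 UMIs gave 0.54, 0.095, 0.22, -0.38, 0.92 and 0.24 for the same 6 genes. Egln3 turned to -0.55, with a UMI left in 1 rod-like cell of each library. Without the mtDNA limit Vegfa was at 0.15, Hif1a at 0.081, Epas1 at 0.11 and Egln1 at -0.23. The median of ratios gave -0.088 (Hif1a), -0.12 (Epas1) and -0.37 (Egln1), and equal class weights -0.39 (Egln1). Equal weights and thinning count deep and shallow cells differently by construction, and the cause was otherwise not tested. Vegfa, Hif1a and Epas1 thus had no stable direction over all cells.

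By class, 4 ratios that had passed 0.5 changed sign: Vegfa in RPE-like cells to 0.047 with equal weights, and under thinning Epas1 in amacrine-like cells to -0.36, Egln1 in RPE-like cells to 0.36 and Pdk1 in RPE-like cells to 1.08. The thinned values rested on few cells with a UMI, 1 WT and 3 ND6 for Epas1, 8 and 28 for Egln1, and 1 and 6 for Pdk1. The intervals of these shares of cells overlapped between the libraries, so thinning cannot settle their direction. Smaller ratios changed sign more often, among them Vegfa in amacrine-like (-0.20 to 0.52) and Müller-like cells (-1.12 to 0.28), Hif1a in rod-like cells (-0.088 to 0.090) and Epas1 in RPE-like cells (-0.47 to 0.48). Of the other comparisons of a class ratio or median with an alternative, 53 moved beyond the counting interval (medians, by over 0.1) and 381 did not. Equal weights changed the log2 difference between leading classes to 0.90 (Vegfa, Müller-like over bipolar-like), 0.25 (Hif1a, bipolar-like over rod-like) and -0.61 (Pdk1, macrophage- or microglia-like over amacrine-like), and resolution 2 changed that of Egln1, cone-like over bipolar-like, to -0.026. Free RNA read from barcodes of 1 to 9 UMIs, an alternative chosen after seeing the data, was at 47.2 CPM (Vegfa), 407 CPM (Hif1a) and 56.8 CPM (Egln1) in ND6. Depth limits Egln3 and Adm, and all members in Müller-like and macrophage- or microglia-like cells.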
